A study of Homo sapiens with 11 samples.

Results

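The 49 genes described here encode enzymes that modify transfer RNAs (tRNAs), together with subunits and sulfur donors of such enzymes. URM1, its thiolation enzymes and the Elongator subunits were left out. Some members, among them DPH3, ALKBH8, NFS1 and MPST, nevertheless work with those pathways. The 49 were chosen by gene symbol from the 58735 genes of the deposited table. All 49 were among the 18368 genes with enough counts to be tested. Poly(A) RNA was sequenced in 4 groups of HEK293T cells, an embryonic kidney line of human origin that carries the SV40 large T antigen. Control cells (n = 3 libraries) are labelled as given a control siRNA. The study's methods list a non-targeting siRNA among the transfections, and a legend of the study abbreviates these libraries as HKWT without spelling it out. The other groups were taken 48 h after Lipofectamine RNAiMAX transfection of siRNA against NAE1 at 50 nM (siNAE1, n = 3), UBE2M at 70 nM (siUBE2M, n = 3) or URM1 at 60 nM (siURM1, n = 2). All groups come from the same cell line, each target was silenced with a single commercial siRNA product, no rescue is among the samples, and the control dose is not given in the sources used here. The siRNA doses differed, so dose and target cannot be told apart in any comparison between knockdowns.

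A tRNA is altered after transcription at many of its nucleotides. Methyl groups, pseudouridine and dihydrouridine in the body of the molecule help it to fold and to last, and changes in and beside the anticodon, such as inosine, queuosine and thiolated or taurine-bearing uridines, tune how it reads codons. URM1 is a ubiquitin-like protein that carries sulfur to the wobble uridine of some cytosolic tRNAs, NAE1 is a subunit of the enzyme that activates the ubiquitin-like protein NEDD8, and UBE2M is an enzyme that passes NEDD8 on. The comparisons ask how the messenger RNAs of the remaining modification machinery stood when each of these genes was silenced.

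Each target fell in its own knockdown, by 1.36 on the log2 scale for NAE1, 3.98 for UBE2M and 1.80 for URM1. The targets also moved in the other knockdowns. NAE1 gave 0.28 in siUBE2M and 0.38 in siURM1 cells, and UBE2M gave -0.16 in siNAE1 and -0.37 in siURM1 cells. URM1 gave 0.28 in siNAE1 and -0.16 in siUBE2M cells, the last not passing in edgeR (adjusted p = 0.096). Libraries held 11733163 to 16321391 counts, and mitochondrially encoded genes took 4.57 to 4.93% of them in control, 4.90 to 5.32% in siNAE1, 4.12 to 4.43% in siUBE2M and 5.29 to 5.72% in siURM1 cells. The share differed between groups, and its part in the results was not tested. Of 8 markers of HEK293T cells, 7 had an FPKM (fragment counts scaled by gene length and library size, as computed by the authors) of at least 1 in every control library, as 7 had in siNAE1 and siURM1 and 6 in siUBE2M cells. Their summed FPKM was 80.6 to 85.9 in control, 120.4 to 131 in siNAE1, 105 to 124 in siUBE2M and 127 to 143 in siURM1 cells. The markers did not all move as their sum did, with log2 fold changes of 0.42, 0.95 and 0.74 for VIM in siNAE1, siUBE2M and siURM1 cells but -0.47, -0.17 and -1.16 for EYA1. The 6 HepG2 markers summed to at most 0.348 FPKM in any library, with 3 of them at 0 in the control, siNAE1 and siURM1 groups and 2 in siUBE2M. The 5 HeLa markers summed to 1.91 to 2.39 FPKM in control, 3.58 to 4.14 in siNAE1, 3.10 to 3.498 in siUBE2M and 2.37 in siURM1 cells.

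In control cells every enzyme was expressed. All 49 had an FPKM of at least 1 in each control library and 17 had at least 10, and their median was 8.75 FPKM against 3.65 for all tested genes. TRMT112, the activating subunit shared by several methyltransferases, was the highest at 62.1 FPKM, and DUS1L, a dihydrouridine synthase, came next at 39.3 FPKM. PUS10, a pseudouridine synthase, was the lowest at 1.54 FPKM. Between these ends most neighbours could not be ordered. The control libraries of adjacent genes overlapped from TRMT1 (33.1 FPKM) through TRMT10C, TRMT2A, GTPBP3, TRUB1, DPH3, FTSJ1 and NSUN2 to QTRT1 (20.4 FPKM), and again from CDK5RAP1 (13.9 FPKM) down to TRMT10A (6.88 FPKM). Clear steps separated TRMT112 from DUS1L, DUS1L from TRMT1, QTRT1 from MPST (17.4 FPKM), MPST from CDK5RAP1, TRMT10A from TRIT1 (5.87 FPKM), DUS4L (4.19 FPKM) from MTO1 (2.80 FPKM), and NSUN3 (2.73 FPKM) from PUS10.

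**Figure D1:**
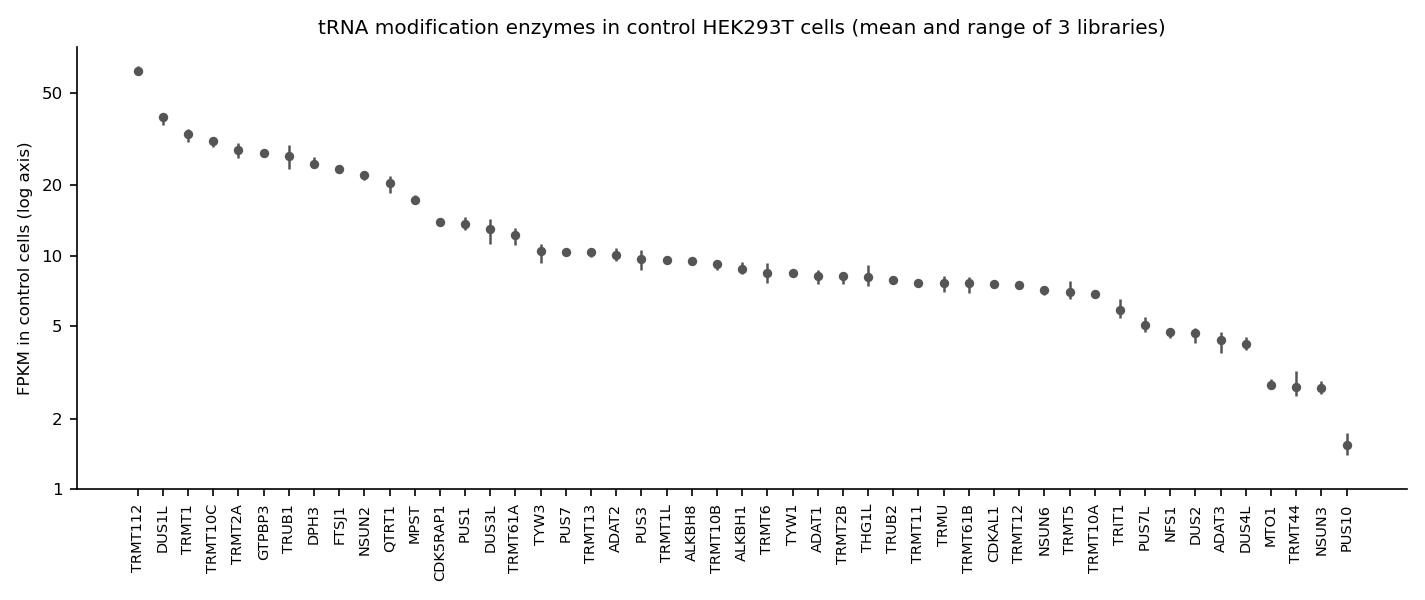
FPKM of the 49 enzymes in control HEK293T cells on a log axis, as the mean (points) and the lowest to highest of 3 libraries (bars), ordered by mean. The levels run from 62.1 for TRMT112 to 1.54 for PUS10, and the bars of most neighbours overlap.

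Many of the enzymes changed, as did many of all tested genes, and the median change of the set was small in each knockdown. In siNAE1 cells 14 of 49 were higher and 18 lower at a Benjamini-Hochberg adjusted p under 0.05, where 27.6% of all tested genes were higher and 27.1% lower. In siUBE2M cells 6 were higher and 20 lower, where the whole table gave 22.7% and 22.6%. In siURM1 cells 9 were higher and 18 lower, against 20.8% higher and 20.8% lower. As shares of the 49, 28.6% were higher and 36.7% lower in siNAE1, 12.2% and 40.8% in siUBE2M, and 18.4% and 36.7% in siURM1 cells. The shares that rose in siNAE1 and siURM1 cells were near those of the whole table. Some of these counts rested on 1 library. Without control replicate 3 the siUBE2M counts were 3 higher and 19 lower, without siURM1 replicate 2 those of siURM1 were 5 and 14, and without control replicate 2 they were 9 and 12. The median log2 fold change of the enzymes was -0.02 in siNAE1, -0.17 in siUBE2M and -0.08 in siURM1 cells, where that of all tested genes was -0.002, 0.007 and -0.021.

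Some changes reached the fold of the study's definition of a differentially expressed gene (DEG), a log2 fold change of 1 or more in either direction with the same adjusted p. In siNAE1 cells 2 enzymes were DEGs that rose (5.3% of tested genes) and 4 were DEGs that fell (8.61%). These are 4.08% and 8.16% of the 49, near the shares of the whole table. The count that rose was 1 without control replicate 3 and 0 without siNAE1 replicate 3, and it was 1 with DESeq2, RLE scaling, a minimum of 10 counts per library or fits of 2 groups. In siUBE2M cells none rose that far (3.22%) and 2 fell (3.89%), and in siURM1 cells none rose (2.89%) and 1 fell (4.73%). The falls are 4.08% and 2.04% of the 49. The highest log2 fold changes in these groups were 0.77 and 0.67, and the count that rose by 1 or more was 0 in edgeR at an unadjusted p under 0.05 and 0 in DESeq2. The 3 comparisons use the same control libraries, so they are not independent of each other. In bulk RNA, fewer cells of a state and less RNA per cell cannot be told apart. Nothing in the labels says that the libraries of a group came from separate cultures beyond their name as biological replicates, so p-values measure the spread between these libraries.

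**Figure D2:**
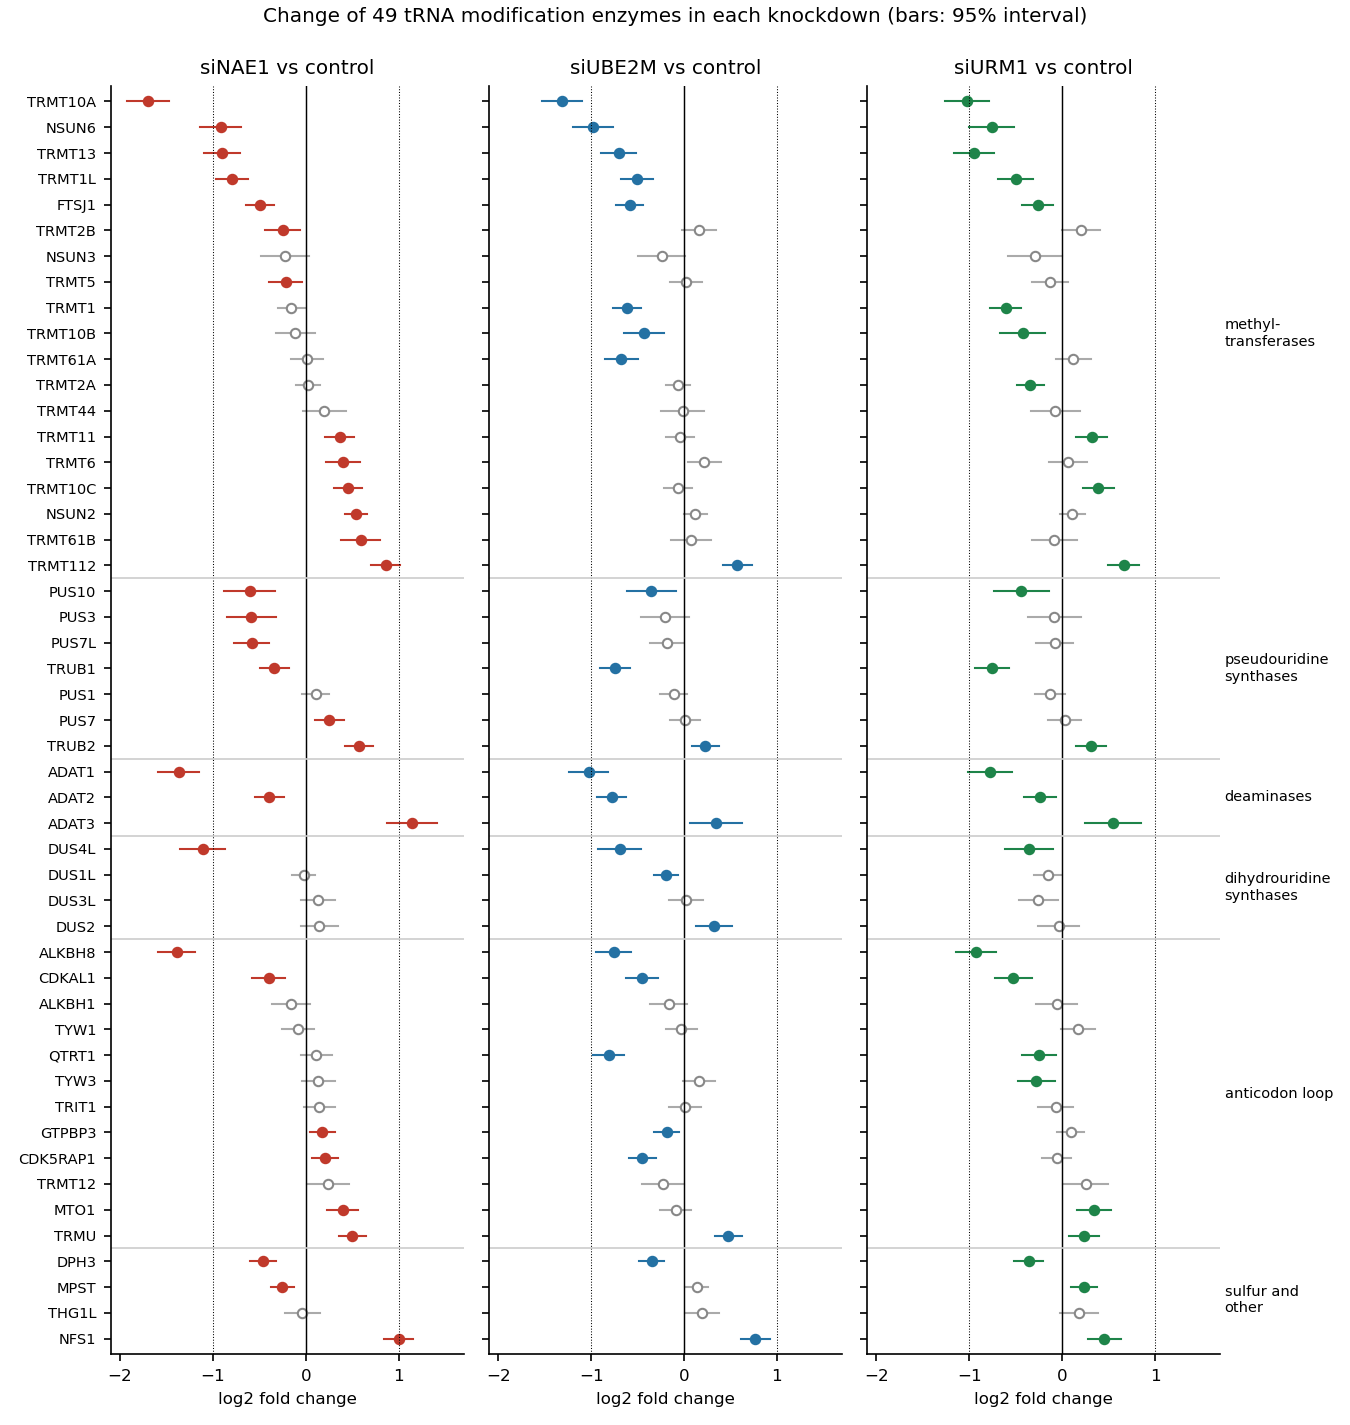
Log2 fold change against control (x axis) of the 49 enzymes, grouped by role and ordered by the change in siNAE1 cells, with 95% intervals; filled points had an adjusted p under 0.05 and dotted lines mark a log2 fold change of 1 in either direction. TRMT10A lies farthest to the left in each knockdown, at -1.70, -1.31 and -1.02.

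TRMT10A, which methylates a guanosine in the core of cytosolic tRNAs, had the largest fall of the 49 in each knockdown. It lies at chr4:99546709-99564032 (GRCh38, minus strand). Its level in CPM (counts scaled to library size, here with TMM factors) was 29.5, 30.3 and 31.4 in control libraries, 8.68, 10.6 and 8.52 in siNAE1, 12.6, 12.8 and 11.4 in siUBE2M, and 13.9 and 16.1 in siURM1. Every knockdown library lay below every control library, and the siURM1 libraries were the highest of the knockdowns. The log2 fold change was -1.70 ± 0.12 (SE) in siNAE1 (adjusted p = 7e-14), -1.31 ± 0.11 in siUBE2M (2.2e-11) and -1.02 ± 0.12 in siURM1 (3.8e-08), which left 30.7%, 40.4% and 49.2% of the control level. TRMT10A was lower in siNAE1 than in siURM1 cells (-0.68, adjusted p = 0.00013). The difference between siNAE1 and siUBE2M (-0.39, adjusted p = 0.011) lost its call without siNAE1 replicate 3 (-0.33, adjusted p = 0.051). Without control replicate 3 or siURM1 replicate 1 the siURM1 change was -0.99 or -0.92, short of the DEG threshold.

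TRMT10A has 2 paralogs among the members. TRMT10C, a subunit of the mitochondrial RNase P that cuts and methylates mitochondrial tRNAs, was at 55.7, 60.3 and 60.6 CPM in control libraries, 79.7, 81.0 and 81.3 in siNAE1, 53.5, 54.2 and 61.2 in siUBE2M, and 70.0 and 84.4 in siURM1. It was above all control libraries in siNAE1 (0.45, adjusted p = 8.7e-06) and siURM1 cells (0.39, adjusted p = 0.0004) and overlapped them in siUBE2M cells (-0.06, adjusted p = 0.54). Without siURM1 replicate 2 the siURM1 change was 0.25 with an adjusted p of 0.061. Its partner HSD17B10 rose by 0.37, 0.25 and 0.37 on the log2 scale in siNAE1, siUBE2M and siURM1 cells. The nuclease subunit PRORP (listed under its older symbol KIAA0391) rose in siUBE2M cells (1.01, adjusted p = 3.8e-07) and gave 0.29 and 0.17 in the others (adjusted p = 0.097 and 0.44). TRMT10B, the third paralog, overlaps EXOSC3 on the other strand, which averaged 31.6 CPM and gave 0.33, -0.17 and 0.04. TRMT10B fell in siUBE2M cells (-0.43, adjusted p = 0.0016) and gave -0.11 in siNAE1 cells (adjusted p = 0.39). In siURM1 cells its 2 libraries differed, at 23.2 and 16.2 CPM against 25.2, 26.6 and 27.9 in control, and the call (-0.42, adjusted p = 0.0053) was lost without replicate 2 (-0.19, adjusted p = 0.29) and larger without replicate 1 (-0.71, adjusted p = 0.0003).

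ADAT1, which deaminates the adenosine next to the anticodon of alanine tRNA, and ALKBH8, which methylates the carboxymethyl group that Elongator places on wobble uridines, came next among the falls in siNAE1 cells. ADAT1 (chr16:75596981-75623300, minus strand) was at 37.7, 34.1 and 39.4 CPM in control libraries, 16.4, 14.1 and 12.4 in siNAE1, 19.4, 18.7 and 16.5 in siUBE2M, and 24.1 and 19.1 in siURM1. All knockdown libraries were below all controls, with log2 fold changes of -1.37 ± 0.11 (SE, adjusted p = 6.8e-12), -1.03 ± 0.11 (3e-09) and -0.78 ± 0.12 (3.9e-06). The siUBE2M change was -0.97 without control replicate 3 and -0.96 without siUBE2M replicate 3, which ends its DEG call. ALKBH8 (chr11:107502726-107565746, minus strand) was at 41.9, 44.3 and 43.7 CPM in control libraries, 19.3, 15.8 and 14.3 in siNAE1, 26.6, 23.7 and 26.7 in siUBE2M, and 22.5 and 23.0 in siURM1. These groups did not overlap with the control or with siNAE1, and the changes were -1.39 ± 0.10 (SE, adjusted p = 4.1e-13), -0.76 ± 0.10 (9.7e-08) and -0.93 ± 0.11 (3.3e-08). The fall of ALKBH8 in siNAE1 cells was larger than that in siUBE2M (difference -0.64, adjusted p = 9e-06) and siURM1 cells (-0.46, adjusted p = 0.0019).

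DUS4L, a dihydrouridine synthase, was a DEG in siNAE1 cells. It was at 22.9, 24.4 and 21.6 CPM in control libraries, 10.1, 11.5 and 10.1 in siNAE1, 15.1, 14.4 and 13.3 in siUBE2M, and 15.0 and 21.0 in siURM1. The siNAE1 and siUBE2M libraries were well below the control, with changes of -1.11 ± 0.12 (SE, adjusted p = 4.2e-09) and -0.69 ± 0.12 (1.4e-05). The siURM1 libraries were unlike each other, and their change of -0.36 ± 0.13 (adjusted p = 0.027) became -0.13 (adjusted p = 0.55) without replicate 1 and -0.61 (0.0028) without replicate 2. The call was also lost without control replicate 1 (-0.35, adjusted p = 0.062) or control replicate 2 (-0.30, adjusted p = 0.11). DUS4L overlaps COG5 on the other strand, which averaged 26.7 CPM and changed by -0.18, -0.07 and 0.18. Its paralog DUS1L gave -0.02, -0.19 and -0.16, of which the siUBE2M value passed (adjusted p = 0.015) although its libraries overlapped the control, and that call was lost without control replicate 1 or 2 or siUBE2M replicate 1 or 2 (-0.15 to -0.16, adjusted p = 0.093 to 0.11). DUS2 rose in siUBE2M cells (0.32, adjusted p = 0.0089), a call lost without control replicate 3 (0.27, adjusted p = 0.056) or siUBE2M replicate 3 (0.23, adjusted p = 0.089), and DUS3L passed in no knockdown.

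**Figure D3:**
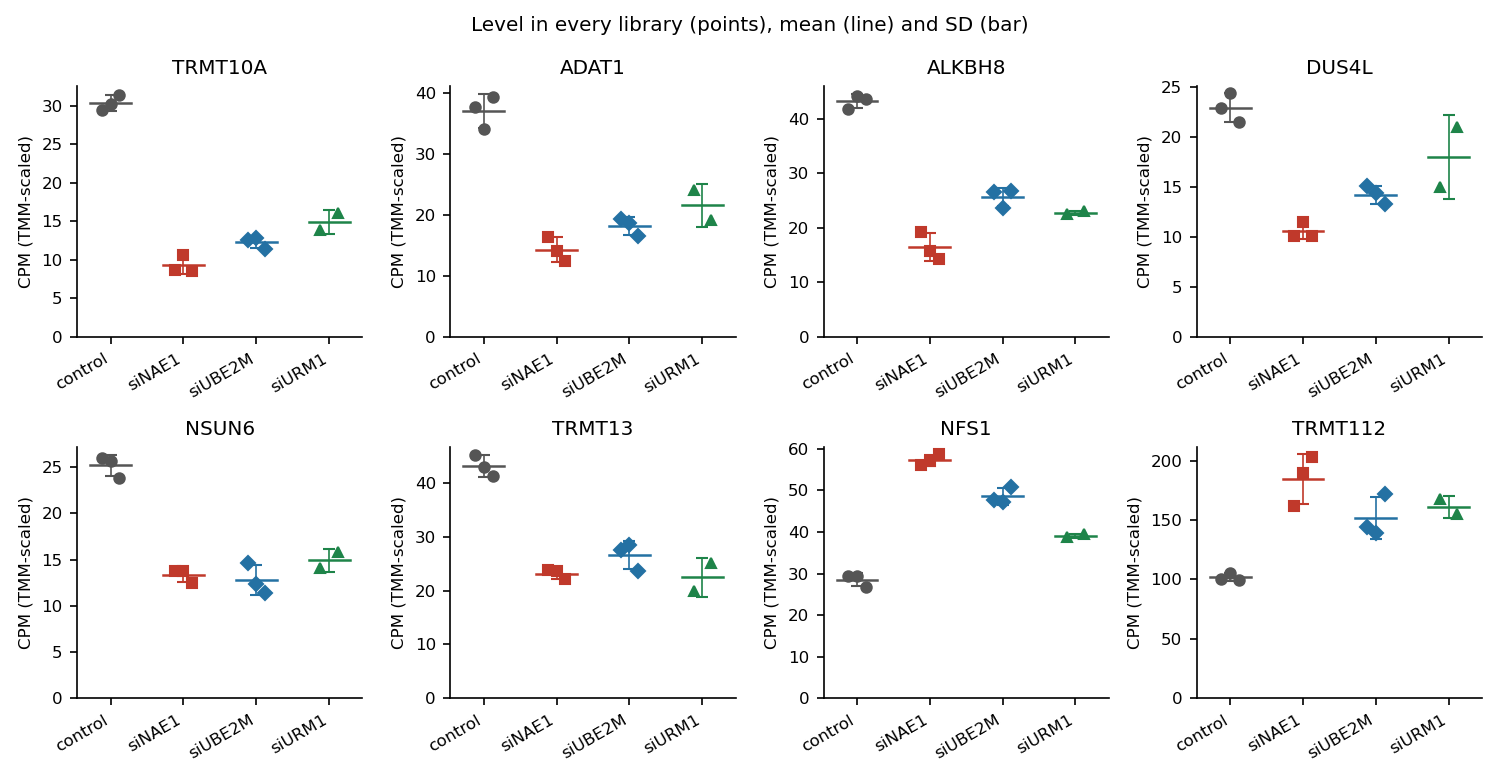
TMM-scaled CPM of 8 enzymes (y axis, from 0) in each library of the 4 groups, with the group mean (line) and SD (bar). The first 6 panels show genes whose knockdown libraries all lie below the control, and NFS1 and TRMT112 lie above it, with NFS1 at 26.9 to 29.4 CPM in control and 38.8 to 58.8 CPM in knockdown libraries.

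NSUN6 and TRMT13, which methylate a cytosine and a ribose in the acceptor stem, fell in each knockdown. NSUN6 was at 26.0, 25.7 and 23.9 CPM in control libraries, 13.8, 13.8 and 12.5 in siNAE1, 14.6, 12.4 and 11.4 in siUBE2M, and 14.0 and 15.8 in siURM1, with log2 fold changes of -0.92 (adjusted p = 2.8e-08), -0.98 (1.2e-08) and -0.76 (8e-06). TRMT13 was at 45.3, 43.1 and 41.3 CPM in control libraries, 23.8, 23.6 and 22.1 in siNAE1, 27.5, 28.5 and 23.6 in siUBE2M, and 19.9 and 25.1 in siURM1, with changes of -0.90 (2.8e-09), -0.70 (3.6e-07) and -0.94 (2.6e-08). For both genes all knockdown libraries were below all controls, and no pair of knockdowns passed the test. The 95% intervals of the NSUN6 differences reached from -0.41 to 0.10 for siNAE1 against siURM1, from -0.48 to 0.03 for siUBE2M against siURM1 and from -0.17 to 0.30 for siNAE1 against siUBE2M. For TRMT13 the same intervals were -0.18 to 0.27, 0.02 to 0.46 and -0.40 to 0.0034, so that the interval of siUBE2M against siURM1 lay above 0 although its adjusted p was 0.095. NSUN6 overlaps the RNA gene AL450384.2 on the same strand, which averaged 4.89 CPM and gave -0.33, -0.38 and -0.28.

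Other members that fell in each knockdown had smaller changes. TRMT1L, a paralog of the dimethylguanosine enzyme TRMT1, was at 48.9, 47.7 and 47.5 CPM in control libraries, 27.4, 30.6 and 24.6 in siNAE1, 35.2, 34.9 and 31.3 in siUBE2M, and 33.3 and 34.6 in siURM1 (-0.80, -0.51 and -0.50). CDKAL1, which adds a methylthio group beside the anticodon of a lysine tRNA, was at 35.8, 33.8 and 36.2 CPM in control libraries, 26.3, 25.9 and 27.99 in siNAE1, 27.5, 23.7 and 26.3 in siUBE2M, and 24.2 and 24.9 in siURM1 (-0.40, -0.45 and -0.52). DPH3, an electron donor for Elongator and for diphthamide synthesis, was at 85.9, 94.3 and 85.4 CPM in control libraries, 63.2, 68.4 and 61.7 in siNAE1, 70.3, 68.1 and 70.6 in siUBE2M, and 69.0 in both siURM1 libraries (-0.46, -0.35 and -0.36). None of the knockdown libraries of these genes reached the lowest control. FTSJ1, the ribose methyltransferase of the anticodon loop, fell by 0.49 in siNAE1 and 0.58 in siUBE2M cells, and its fall of 0.26 in siURM1 cells was lost without control replicate 2 (-0.22, adjusted p = 0.069) or either siURM1 library (-0.27 and -0.26, adjusted p = 0.055 and 0.066). Its partners moved in opposite directions, with THADA at -0.62, -0.34 and -0.51 and WDR6 at 0.47, 0.32 and 0.34, all past the threshold.

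Fewer enzymes rose. NFS1, the cysteine desulfurase that supplies sulfur for thiolation and for iron-sulfur clusters, lies at chr20:35668055-35699359 (minus strand). It was at 29.4, 29.4 and 26.9 CPM in control libraries, 56.1, 57.0 and 58.8 in siNAE1, 47.6, 47.3 and 50.9 in siUBE2M, and 38.8 and 39.5 in siURM1. The groups did not overlap, and the order ran from control through siURM1 and siUBE2M to siNAE1. The log2 fold changes were 1.00 ± 0.08 (SE, adjusted p = 2.6e-12), 0.77 ± 0.08 (1.9e-09) and 0.45 ± 0.09 (0.0001). Each pair of knockdowns also differed, siNAE1 from siURM1 by 0.55 (adjusted p = 7e-06), siUBE2M from siURM1 by 0.31 (0.0056) and siNAE1 from siUBE2M by 0.24 (0.013). The siUBE2M to siURM1 call was lost without siURM1 replicate 1 (0.30, adjusted p = 0.051), the siNAE1 to siUBE2M call without siUBE2M replicate 1 or 2 (0.22 and 0.21, adjusted p = 0.055 and 0.068), and the siNAE1 change was 0.96 without control replicate 3 and 0.98 without siNAE1 replicate 3. NFS1 overlaps ROMO1 on the other strand, which averaged 62.6 CPM and gave 0.50, 0.39 and 0.62.

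TRMT112 rose in each knockdown, whereas the enzymes it activates took different courses. It was at 100.3, 106 and 99.3 CPM in control libraries, 162, 189.5 and 203 in siNAE1, 144, 139 and 172 in siUBE2M, and 168 and 155 in siURM1, all above the control. The changes were 0.86 (adjusted p = 5e-11), 0.58 (3e-07) and 0.67 (1.5e-07). Its client ALKBH8 fell, as above. Its client TRMT11, a guanosine methyltransferase, gave 0.36 (adjusted p = 0.00021), -0.04 (0.7) and 0.32 (0.0034), the last lost without siURM1 replicate 2 (0.22, adjusted p = 0.12). THUMPD2 and THUMPD3, further methyltransferases that work with TRMT112, gave -0.04, -0.21 and -0.35, and 0.05, 0.27 and -0.10, of which the siUBE2M values (adjusted p = 0.037 and 0.002) and the siURM1 value of THUMPD2 (0.0026) passed. TRMT112 overlaps ESRRA on the other strand, which averaged 71.5 CPM and gave 0.45, 0.25 and 0.61. The deposited counts do not show whether strand was used in counting, so for overlapping genes the source of the fragments cannot be told apart. Not every such overlap is named here.

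Promoter windows from RefSeq (GRCh38.p14, mostly upstream of each annotated start) were found for 40 of the 49 members, 52 windows in all. The ETS motif, CCGGAAG on either strand, was in 21 of the 52 windows (40.4%) against 10.3% of all 35116 promoter windows, which include genes that these cells do not express, and in 18 of the 40 members. The motif holds a CpG, and member windows had a median of 21.5 CpG against 14.0 in all windows, at the same median GC content of 58.7%; the part of CpG content in the difference was not tested. The CCAAT motif of NF-Y was in 34.6% of member windows and 34.6% of all, CACGTG (the E-box) in 9.62% and 7.26%, AAGATGGC (YY1) in 3.85% and 2.89%, and TGATGNAAT (CEBP-ATF) in 1.92% and 0.991%. All were searched on both strands, and a match is a description of letters, not a binding site. Windows of TRMT10C, TRMU, TRMT6 and NSUN3 also held more than 1 ETS match and are not shown. Windows of 2 members that rose, NFS1 and TRMT112, and 2 that fell, TRMT13 and NSUN6, are shown, each with more than 1 ETS match. They are a choice among such windows and say nothing of how the motif relates to direction. They read 5′ to 3′ along the gene's strand, with matches to any of the 5 motifs in capitals. In the window of TRMT112 the capitals CCAAT mark NF-Y, and the other capitals in the 4 windows are CCGGAAG or its reverse complement.
NFS1, chr20:35699303-35699602 (minus strand): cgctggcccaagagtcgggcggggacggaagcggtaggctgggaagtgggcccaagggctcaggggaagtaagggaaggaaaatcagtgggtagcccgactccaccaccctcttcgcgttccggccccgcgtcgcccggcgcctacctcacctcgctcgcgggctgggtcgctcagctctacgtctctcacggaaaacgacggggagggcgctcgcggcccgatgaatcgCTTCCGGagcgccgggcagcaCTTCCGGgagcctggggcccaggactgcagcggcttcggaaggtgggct
TRMT112, chr11:64317510-64317809 (minus strand): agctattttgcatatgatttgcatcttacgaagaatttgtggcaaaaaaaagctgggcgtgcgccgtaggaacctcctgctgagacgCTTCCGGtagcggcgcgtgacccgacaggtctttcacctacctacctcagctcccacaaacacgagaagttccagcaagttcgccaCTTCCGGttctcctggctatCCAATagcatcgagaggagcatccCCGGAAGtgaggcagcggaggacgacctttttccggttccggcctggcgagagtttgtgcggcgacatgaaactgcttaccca
TRMT13, chr1:100132913-100133212 (plus strand): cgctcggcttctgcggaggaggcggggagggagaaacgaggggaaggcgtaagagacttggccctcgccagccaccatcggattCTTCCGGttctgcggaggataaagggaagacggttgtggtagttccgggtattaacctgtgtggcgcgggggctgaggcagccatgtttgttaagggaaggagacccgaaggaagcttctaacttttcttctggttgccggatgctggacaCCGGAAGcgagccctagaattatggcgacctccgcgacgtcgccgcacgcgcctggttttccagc
NSUN6, chr10:18659189-18659488 (minus strand): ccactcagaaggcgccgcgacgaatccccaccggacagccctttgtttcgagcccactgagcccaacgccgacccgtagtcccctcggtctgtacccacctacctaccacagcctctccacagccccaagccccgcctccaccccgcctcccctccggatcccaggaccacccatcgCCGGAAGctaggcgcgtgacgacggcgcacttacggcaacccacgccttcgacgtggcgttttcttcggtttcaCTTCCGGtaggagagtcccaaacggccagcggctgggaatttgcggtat

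The subunits of the wobble adenosine deaminase were called in opposite directions. ADAT2, the catalytic subunit, was at 69.4, 77.4 and 71.9 CPM in control libraries, 59.0, 53.6 and 53.9 in siNAE1, 46.2, 43.6 and 37.6 in siUBE2M, and 61.2 and 62.8 in siURM1. It was below all controls in each knockdown (-0.39, adjusted p = 8.9e-05; -0.78, 1.6e-09; -0.23, 0.031) and lower in siUBE2M than in siNAE1 or siURM1 cells (adjusted p = 0.00026 and 1.3e-05). The siURM1 call was lost without control replicate 2 (-0.18, adjusted p = 0.16), control replicate 3 (-0.23, 0.06) or either siURM1 library (-0.22 and -0.25, adjusted p = 0.15 and 0.087). ADAT3, its partner, was at 10.7, 10.0 and 8.65 CPM in control libraries, 18.7, 19.6 and 27.0 in siNAE1, 13.7, 10.9 and 12.8 in siUBE2M, and 15.0 and 13.6 in siURM1. It was above all controls in each knockdown, most in siNAE1 (1.14, adjusted p = 1.5e-08), with 0.54 in siURM1 (0.0045) and 0.34 in siUBE2M (0.046). Without siNAE1 replicate 3 the siNAE1 change was 0.97, short of a DEG. The siURM1 call was lost without siURM1 replicate 1 (0.47, adjusted p = 0.066), and the siUBE2M call without control replicate 2 or 3 (0.37 and 0.27, adjusted p = 0.062 and 0.17) or siUBE2M replicate 1 or 3 (0.28 and 0.32, adjusted p = 0.16 and 0.098). The siUBE2M call of ADAT3 was also lost in DESeq2 (0.34, adjusted p = 0.068) and with a minimum of 10 counts per library (0.33, 0.051), and the siURM1 call of ADAT2 without a low-count filter (-0.23, 0.054). ADAT3 (chr19:1905378-1913447) lies inside SCAMP4 on the same strand, which averaged 120.3 CPM and gave -0.03, -0.11 and 0.21, so fragments of ADAT3 and SCAMP4 may not be told apart.

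**Figure D4:**
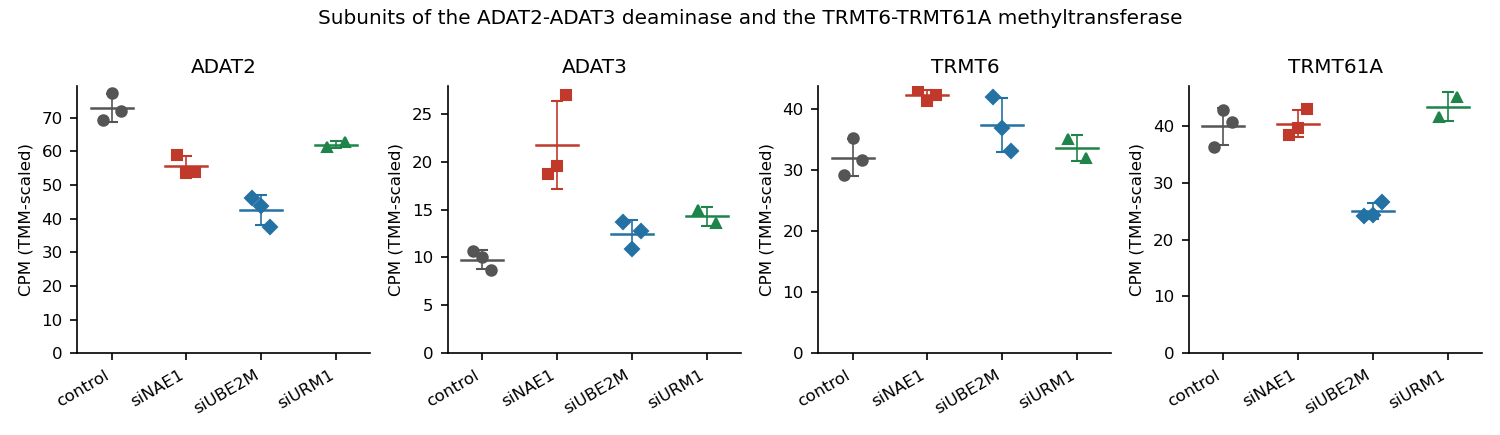
TMM-scaled CPM (y axis, from 0) of the subunits of 2 enzyme complexes in every library of the 4 groups, with the group mean (line) and SD (bar). ADAT2 is below and ADAT3 above the control in each knockdown, and TRMT61A drops to 24.2 to 26.7 CPM in siUBE2M cells, below the 36.4 to 45.2 CPM of all other libraries.

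TRMT61A and QTRT1 were lowest in siUBE2M cells. TRMT61A, the catalytic subunit of a methyladenosine enzyme, was at 36.4, 42.8 and 40.8 CPM in control libraries, 38.5, 39.7 and 43.1 in siNAE1, 24.2, 24.3 and 26.7 in siUBE2M, and 41.7 and 45.2 in siURM1. Only the siUBE2M libraries were low (-0.67, adjusted p = 2.1e-07), and they differed directly from siNAE1 (adjusted p = 2e-07) and siURM1 (1.2e-07). The partner TRMT6 did not fall there, with 29.3, 35.2 and 31.7 CPM in control, 43.1, 41.4 and 42.3 in siNAE1, 42.0, 36.9 and 33.2 in siUBE2M, and 35.1 and 32.1 in siURM1. It rose in siNAE1 cells (0.40, adjusted p = 0.00049) and gave 0.22 in siUBE2M (0.052) and 0.07 in siURM1 cells (0.64). QTRT1, the catalytic subunit of the queuosine-inserting enzyme, was at 76.7, 71.3 and 64.2 CPM in control libraries, 72.7, 74.6 and 82.7 in siNAE1, 39.0, 36.3 and 45.9 in siUBE2M, and 56.7 and 62.4 in siURM1. It fell in siUBE2M cells (-0.81, adjusted p = 3.7e-09), where it was lower than in siNAE1 (difference of siNAE1 minus siUBE2M 0.93, 2.9e-10) and siURM1 cells (-0.56, 2.6e-05). The siURM1 call (-0.25, adjusted p = 0.034) was lost without control replicate 1 (-0.18, 0.19), control replicate 2 (-0.23, 0.086), siUBE2M replicate 1 (-0.24, 0.05) or siURM1 replicate 1 (-0.18, 0.27). Its partner QTRT2 gave -0.00, -0.48 (adjusted p = 1.3e-06) and -0.34 (0.00069).

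Of the 9 members listed as working mainly on mitochondrial RNA, 7 rose and 1 fell in siNAE1 cells. In siUBE2M cells 2 rose and 2 fell, and in siURM1 cells 4 rose and none fell. The list was drawn up with earlier results known and holds members only. Genes of mitochondrial tRNA enzymes outside it went both ways in siNAE1 cells, among them METTL8 (-0.50), OSGEPL1 (-0.43) and HSD17B10 (0.37). As shares of the 9, 77.8% rose in siNAE1 cells where 27.6% of all tested genes did, 22.2% in siUBE2M cells against 22.7%, and 44.4% in siURM1 cells against 20.8%, so the siUBE2M share was near that of the whole table. The shares that fell were 11.1%, 22.2% and 0.0%, beside 27.1%, 22.6% and 20.8% of all tested genes, and that of siUBE2M was again near the whole table. The last count was also 0 in edgeR at an unadjusted p under 0.05 and in DESeq2. Their median log2 fold change was 0.40, -0.06 and 0.21. Compared directly, 6 were higher and 1 lower in siNAE1 than in siUBE2M cells, where 22.7% and 21.6% of all tested genes were. When each library was left out in turn, 5 to 7 rose in siNAE1 cells, 1 or 2 in siUBE2M cells and 1 to 4 in siURM1 cells, and 6 in each case for siNAE1 against siUBE2M. The number that fell in the same fits was 0 or 1 in siNAE1 cells and 1 or 2 in siUBE2M cells. The share of counts from mitochondrially encoded genes, given above, was also lowest in siUBE2M cells, and its part here was not tested.

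TRMU, which thiolates the wobble uridine of mitochondrial tRNAs, rose in each knockdown. It was at 76.6, 72.1 and 65.2 CPM in control libraries, 96.6, 98.8 and 107 in siNAE1, 94.0, 97.4 and 106 in siUBE2M, and 79.9 and 87.5 in siURM1, so that no knockdown library overlapped the control. The changes were 0.50 (adjusted p = 8.7e-07), 0.48 (2.9e-06) and 0.23 (0.024), the last lost without control replicate 3 (0.18, adjusted p = 0.1) or siURM1 replicate 2 (0.16, 0.24). MTO1 and GTPBP3 together place the taurinomethyl group on the same uridine. MTO1 was at 33.4, 32.7 and 36.0 CPM in control libraries, 42.6, 44.5 and 47.5 in siNAE1, 31.6, 30.6 and 33.8 in siUBE2M, and 40.8 and 45.5 in siURM1. It rose in siNAE1 (0.40, adjusted p = 0.00018) and siURM1 cells (0.34, 0.0036), and gave -0.09 in siUBE2M cells (0.41), from which both other knockdowns differed (adjusted p = 2e-05 and 0.00051). Without siURM1 replicate 2 its siURM1 change was 0.26 (adjusted p = 0.087).

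GTPBP3 and CDK5RAP1 were called in opposite directions in siNAE1 and siUBE2M cells. GTPBP3 was at 130.1, 125 and 122 CPM in control libraries, 135, 137 and 155 in siNAE1, 102, 116 and 112 in siUBE2M, and 137 and 131 in siURM1. Its changes were small, 0.18 in siNAE1 and -0.19 in siUBE2M cells (adjusted p = 0.025 for both), and each was lost in several of the fits without 1 library. These were the fits without control replicate 2 or 3 or siNAE1 replicate 3 for siNAE1 (0.11 to 0.18, adjusted p = 0.056 to 0.17), and without control replicate 1 or 2 or siUBE2M replicate 1 for siUBE2M (-0.13 to -0.18, adjusted p = 0.06 to 0.19). The siNAE1 call of GTPBP3 was also lost with a minimum of 10 counts per library (0.15, adjusted p = 0.05). CDK5RAP1, the mitochondrial counterpart of CDKAL1, was at 65.0, 63.9 and 63.5 CPM in control libraries, 73.7, 71.5 and 77.2 in siNAE1, 49.3, 44.1 and 47.8 in siUBE2M, and 60.2 and 63.2 in siURM1. It fell in siUBE2M cells (-0.45, adjusted p = 7.3e-06), rose by 0.21 in siNAE1 cells (0.015) and gave -0.06 in siURM1 cells (0.61). The rise was lost without siNAE1 replicate 3 (0.18, adjusted p = 0.056), whereas the direct difference between siNAE1 and siUBE2M was 0.65 (9.9e-09) for CDK5RAP1 and 0.36 (4.6e-05) for GTPBP3.

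MPST, a sulfurtransferase that hands sulfur from mercaptopyruvate to acceptor proteins, was the only member called in opposite directions in siNAE1 and siURM1 cells. It was at 125, 117 and 113 CPM in control libraries, 94.8, 99.1 and 105 in siNAE1, 126, 132.5 and 133 in siUBE2M, and 139 in both siURM1 libraries. The siNAE1 libraries were below and the siURM1 libraries above the control, with changes of -0.25 (adjusted p = 0.0015) and 0.23 (0.0078), and 0.14 in siUBE2M cells (0.076). The direct difference of siNAE1 from siURM1 was -0.49 (adjusted p = 1.9e-06). MPST overlaps TST, a related sulfurtransferase, on the other strand, which averaged 38.3 CPM and gave -0.31, -0.98 and -0.27.

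Among the pseudouridine synthases, TRUB1 and TRUB2 were called in opposite directions. TRUB1, which acts on the T loop of cytosolic tRNAs, fell in each knockdown (-0.34, -0.74 and -0.76; adjusted p = 0.00069, 6.3e-09 and 5.9e-08), while its mitochondrial paralog TRUB2 rose (0.57, 0.23 and 0.31; 1.1e-07, 0.013 and 0.003). TRUB1 was at 85.7, 95.9 and 108 CPM in control libraries, 79.6, 79.6 and 70.1 in siNAE1, 63.2, 54.8 and 55.1 in siUBE2M, and 56.7 and 57.6 in siURM1, all below the control. The TRUB2 calls were lost in siUBE2M cells without control replicate 3 (0.21, adjusted p = 0.051) or siUBE2M replicate 3 (0.19, 0.067) and in siURM1 cells without siURM1 replicate 1 (0.26, 0.062). In siNAE1 cells PUS7 rose (0.25, adjusted p = 0.0086, lost without siNAE1 replicate 1 at 0.21, 0.055) and PUS7L fell (-0.58, 3.4e-06). Neither passed in the other knockdowns, with 0.01 and 0.03 for PUS7 and -0.19 and -0.08 for PUS7L. PUS7L was lower in siNAE1 than in siURM1 cells (adjusted p = 0.00022) and than in siUBE2M cells (0.00093, with libraries that overlapped). PUS10 gave -0.60, -0.35 and -0.44, and PUS3 fell in siNAE1 cells (-0.59, adjusted p = 0.00047) and gave -0.20 and -0.08 in the others (0.21 and 0.68). PUS10 lost its siUBE2M call without control replicate 2 or 3 or any siUBE2M library (-0.25 to -0.38, adjusted p = 0.05 to 0.21) and its siURM1 call without control replicate 2 or siURM1 replicate 1 (-0.33 and -0.37, 0.13 and 0.16). The siUBE2M call of PUS10 was also lost in DESeq2 (adjusted p = 0.053) and without a low-count filter (0.082). PUS10 overlaps PEX13 on the other strand, which averaged 31.6 CPM and gave -0.18, -0.39 and -0.18. TRUB2 overlaps COQ4 on the other strand, which averaged 62.9 CPM and gave -0.27, -0.50 and -0.24.

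Several base methyltransferases have paralogs among the members, and no difference between paralogs was tested. TRMT1 fell, as TRMT1L did, in siUBE2M (-0.61, adjusted p = 6e-08) and siURM1 cells (-0.61, 7.8e-07) and gave -0.15 in siNAE1 cells (0.083), from which both other knockdowns differed (adjusted p = 9.9e-06 and 8.2e-05). TRMT61B, the mitochondrial relative of TRMT61A, rose in siNAE1 cells (0.59, adjusted p = 2.1e-05) and gave 0.07 and -0.08 in the others (0.62 and 0.63). TRMT2A, a methyluridine enzyme, fell in siURM1 cells (-0.34, adjusted p = 0.00041). Its mitochondrial paralog TRMT2B had libraries that overlapped the control in siNAE1 cells (-0.25, adjusted p = 0.029), and that call was lost without control replicate 2 or 3 or siNAE1 replicate 1 or 2 (-0.16 to -0.23, 0.084 to 0.2). NSUN2, the main cytosine methyltransferase of tRNAs, rose in siNAE1 cells (0.54, adjusted p = 8.3e-09) above both other knockdowns (1.5e-06 against siUBE2M and 9.3e-06 against siURM1). TRMT5 gave -0.21 in siNAE1 cells with overlapping libraries (adjusted p = 0.045), lost in 5 of the fits without 1 library (-0.13 to -0.21, 0.054 to 0.29) and without a low-count filter (0.081). TYW3, of wybutosine synthesis, gave -0.28 in siURM1 cells (adjusted p = 0.028), lost without control replicate 2 or 3 or siURM1 replicate 2 (-0.17 to -0.24, 0.097 to 0.31).

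By role, the 19 methyltransferases and their subunits gave 6 higher and 7 lower in siNAE1, 1 and 8 in siUBE2M, and 3 and 8 in siURM1 cells. The 7 pseudouridine synthases gave 2 and 4, 1 and 2, and 1 and 2. Of the 12 anticodon loop enzymes, 4 rose and 2 fell in siNAE1, 1 rose and 5 fell in siUBE2M, and 2 rose and 4 fell in siURM1 cells. Among all tested genes 27.6% were higher and 27.1% lower in siNAE1, 22.7% and 22.6% in siUBE2M, and 20.8% and 20.8% in siURM1 cells. The methyltransferases that rose in siNAE1 cells (31.6%) and the pseudouridine synthases that rose there (28.6%) were near those shares, and groups of this size move by many percentage points with 1 gene. The members that passed in no knockdown were ALKBH1, DUS3L, NSUN3, PUS1, THG1L, TRIT1, TRMT12, TRMT44 and TYW1, whose log2 fold changes lay between -0.29 (NSUN3 in siURM1) and 0.25 (TRMT12 in siURM1). They include TYW1 and TRMT12 of wybutosine synthesis and TRIT1, the isopentenyl transferase.

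Between knockdowns, 17 members were higher and 11 lower in siNAE1 than in siURM1 cells, where 19.5% and 19.1% of all tested genes were. In siUBE2M against siURM1 cells 6 were higher and 10 lower (16.7% and 18.3% of tested genes), and in siNAE1 against siUBE2M cells 21 were higher and 11 lower (22.7% and 21.6%). As shares of the 49 these are 34.7% and 22.4%, 12.2% and 20.4%, and 42.9% and 22.4%. Without siUBE2M replicate 3, 4 were higher in siUBE2M than in siURM1 cells. The 11 lower in siNAE1 than in siUBE2M cells became 5 without siNAE1 replicate 3 and 7 without siUBE2M replicate 1. The median log2 difference of the 49 was 0.07, -0.015 and 0.11, where that of all tested genes was 0.001, 0.008 and -0.017. The extremes were DUS4L (-0.76) and TRMT61B (0.68) in siNAE1 against siURM1, TRMT61A (-0.79) and TYW3 (0.43) in siUBE2M against siURM1, and ALKBH8 (-0.64) and QTRT1 (0.93) in siNAE1 against siUBE2M. Without siURM1 replicate 2 the DUS4L difference was -0.50 (adjusted p = 0.019), so its place as an extreme rested on that library.

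The number of members called rested in part on single libraries. Of the calls against control, 27 of 32 in siNAE1, 20 of 26 in siUBE2M and 14 of 27 in siURM1 cells held in every fit that left out 1 of the 11 libraries. For the 14 in siURM1 cells, 3 were higher (NFS1, TRMT112 and MPST) and 11 lower. Of the differences between knockdowns, 14 of 28 for siNAE1 against siURM1, 10 of 16 for siUBE2M against siURM1 and 21 of 32 for siNAE1 against siUBE2M held in every such fit. In all, 13 of the 49 (26.5%) were lower in each of the 3 knockdowns, where 9.62% of all tested genes were, and 5 (10.2%) were higher in each, near the 9.3% of all tested genes. The members had a higher median level in control cells than all tested genes, and the part of level in these shares was not tested. The genes that fell in each knockdown and kept every call were ADAT1, ALKBH8, CDKAL1, DPH3, NSUN6, TRMT10A, TRMT13, TRMT1L and TRUB1, and those that rose were NFS1 and TRMT112.

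Genes of the neighbouring pathways were read the same way. Of 11 genes of URM1 thiolation and Elongator, the number higher and lower was 4 and 3 in siNAE1, 0 and 3 in siUBE2M, and 1 and 3 in siURM1 cells, URM1 itself among the latter. The share that fell, 27.3% in each knockdown, was near the 27.1%, 22.6% and 20.8% of all tested genes that fell. In siUBE2M cells 1 of these genes was higher in edgeR at an unadjusted p under 0.05 and 0 were in DESeq2. Of 38 further tRNA modification genes, 13 were higher and 15 lower in siNAE1, 8 and 20 in siUBE2M, and 9 and 13 in siURM1 cells, with medians of 0.02, -0.18 and -0.07. These are 34.2% higher and 39.5% lower in siNAE1, 21.1% and 52.6% in siUBE2M, and 23.7% and 34.2% in siURM1 cells, beside the shares of all tested genes given above. The DEGs among them were METTL6 (-1.07), DTWD2 (-1.02) and TRMT9B (-1.13) in siNAE1 cells, and ALKBH3 (-1.17) and PRORP in siUBE2M cells. Those that fell in siNAE1 cells are 7.89% of the 38, near the 8.61% of all tested genes. In siUBE2M cells 2.63% rose and 2.63% fell as DEGs, beside 3.22% and 3.89%. TRMT9B was low, at 0.34 FPKM in control cells. METTL6 methylates serine tRNA and ALKBH3 removes methyl groups from RNA and DNA.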

How the data were processed

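Poly(A) RNA of 11 HEK293T libraries was sequenced strand-specifically as paired reads. After trimming with fastp, the authors mapped reads to GRCh38 by HISAT2 2.0.5, and they deposited unnormalized fragment counts per gene from featureCounts 1.5.0-p3. FPKM values were computed by the authors and deposited beside them, and served here only for levels between genes and for the cell line markers in each group. Which annotation was used, and whether counting used strand, is not given in the sources used here. The study's own test was DESeq2 1.20.0.

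The deposited counts were tested with edgeR 4.0.16 and limma 3.58.1 under R 4.3.3. Genes were filtered with filterByExpr, libraries scaled by TMM, and 18368 of 58735 genes tested in a single quasi-likelihood fit with 4 groups. Adjusted p-values are Benjamini-Hochberg over all genes tested, and DEGs also had a log2 fold change of 1 or more in either direction. The fit was tested on simulated data. Library totals of 11733163 to 16321391 and a biological coefficient of variation of 7.06% set the precision. Members, gene lists and naming rules were chosen with earlier results of these data known. Values per library are given for DEGs, the 3 highest and 3 lowest changes of each knockdown, up to 10 members called in the same direction in all knockdowns (those with the largest smallest change), those called in opposite directions, sulfur and wobble enzymes, and some of the listed complexes and paralogs, the rest being given by their changes. TRMT5, TYW3, PUS3, PUS10, NSUN2 and DUS2 were named after their values were seen. Across groups, same-numbered libraries did not deviate together (correlations -0.07 to 0.08 over 15 pairs). The alternatives were DESeq2 1.42.0, RLE scaling, other filters, 2 groups per fit, a replicate block, glmTreat and leaving out each library. Plots were drawn with Python 3.11.15 and matplotlib 3.10.9.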

Additional observations from a re-analysis of the deposited data

How the results depend on the processing

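Counts of members called stayed within 1.5 times their value under DESeq2, RLE scaling, the table without a low-count filter, a minimum of 10 counts per library, fits of 2 groups and the replicate block. With the replicate number as a block the counts were 32, 26 and 27 for siNAE1, siUBE2M and siURM1 against control, and 26, 16 and 31 for siNAE1 against siURM1, siUBE2M against siURM1 and siNAE1 against siUBE2M, where DESeq2 gave 32, 24, 27, 26, 15 and 31. The replicate block was not part of the main test because same-numbered libraries did not deviate together. The glmTreat test against a log2 change of 0.25, not 0, gave 12 in siURM1 cells, 12 for siNAE1 against siURM1, 5 for siUBE2M against siURM1 and 14 for siNAE1 against siUBE2M, and against 1 in place of the DEG threshold it gave 3, 0 and 0 DEGs in siNAE1, siUBE2M and siURM1 cells, a stricter test by construction. Leaving out each library gave 1 to 3 DEGs in siUBE2M cells, with 1 without siUBE2M replicate 3. In siURM1 cells it gave 0 to 2, with 0 without control replicate 3 or siURM1 replicate 1 and 2 without siURM1 replicate 2. With 1 siURM1 library left, its spread was taken from the other groups. DEGs in siNAE1 cells numbered 4 to 6 over the same fits, the lowest count being that without siNAE1 replicate 3. Of 47 calls of the members that the naming rule picked, leaving aside partners in listed complexes and paralogs such as ADAT2 and QTRT1, 8 were lost in at least 1 of 17 settings (glmTreat not among them) and none changed direction. Over all 49 members, 5 of 32 calls in siNAE1, 6 of 26 in siUBE2M and 13 of 27 in siURM1 cells were lost without at least 1 library. With the replicate block 5 calls of members were lost and 2 gained over the 6 comparisons, among them QTRT1 in siURM1 cells (adjusted p = 0.034, 0.066 with the block), TRMT2B in siURM1 cells (0.11, 0.04 with it) and TRMT13 in siUBE2M against siURM1 (0.095, 0.046 with it). Whether depth played a part in the lost calls was not tested.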
